A study of Bos taurus with 12 samples.

Results

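The genes described here are KRT7, KRT8, KRT18 and KRT19, the keratins of simple epithelia, together with VIM, which encodes vimentin. They were taken by symbol from a table of RNA-seq read counts of bovine expanded blastocysts, in which all 5 were listed once among 32637 genes. The study asked how female and male embryos produced in vitro differ in their transcripts, and its 11 RNA-seq libraries hold 6 female and 5 male pools. Each pool was made from cut pieces of 2 embryos of the same sex, and each piece held both inner cell mass and trophectoderm. The sex of an embryo was read by PCR on its remaining piece. All embryos were expanded blastocysts of day 7 or day 8 of culture, fertilized with semen that was rotated between bulls, with no treatment beside the culture itself. A replicate is therefore a pool of embryos, and the values are averages over all cell types of the blastocyst. The other sample of the series, mixed-sex embryos at the 4-cell stage read by Iso-seq, was not analysed here.

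Keratins build the intermediate filaments of epithelial cells. A filament forms only when a type I keratin pairs with a type II keratin, and an unpaired keratin protein is usually degraded. KRT8 and KRT7 are type II and KRT18 and KRT19 are type I keratins. The pair of KRT8 and KRT18 is the first to be made in a mammalian embryo and marks the trophectoderm, the outer epithelium of the blastocyst that goes on to form the placenta. Vimentin is a type III intermediate filament protein that assembles by itself and is typical of mesenchymal cells, and of many cells in culture.

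On the ARS-UCD assembly, KRT18 (gene 506480) lies at 26998520 to 27002170 on chromosome 5, and KRT8 (gene 281269) lies at 27040267 to 27047717 on the same chromosome, 38.1 kb away. The annotation places 1 gene, a long non-coding RNA, between them. KRT7 (gene 535697) lies 627 kb beyond KRT8, at 27674858 to 27688924. KRT19 (gene 514812) is at 41731623 to 41735456 on chromosome 19, and VIM (gene 280955) is at 31653816 to 31661745 on chromosome 13. No other annotated gene overlaps any of the 5. Simple keratins are known for processed copies elsewhere in mammalian genomes, and how reads shared with such copies were counted is not given in the sources used here.

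Reads counted on genes numbered from 6664112 to 16162985 in the female libraries and from 9942952 to 21392764 in the male libraries. XIST and USP9Y counts were on the side of the labelled sex in 11 of 11 libraries. Levels are given as CPM, the field's usual scaling of counts to a common library total, with TMM factors, which correct for differences in library composition. CPM is not corrected for gene length, so it shows how 1 gene differs between pools, and the order of CPM between genes is not an order of transcript levels. Of the inner cell mass markers, 6 of 7 were in the table and all 6 had at least 20 counts in every library. All 8 trophectoderm markers (CDX2, GATA2, GATA3, TFAP2A, TFAP2C, DAB2, PTGS2 and LGALS3) had at least 17 counts in every library. Markers of cumulus cells, the somatic cells that surround the oocyte, summed to between 5.38 and 32.7 CPM. Of the 7, AMH, FOXL2 and INHA had at most 4 counts in any library. FSHR had 58 to 359 counts per library, at a mean of 13.1 CPM in females and 9.99 CPM in males. HAS2, TNFAIP6 and CYP19A1 reached 61, 45 and 42 counts in their highest libraries.

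KRT8 had 4543, 6534, 3586, 5853 and 20142 CPM in male replicates 1 to 5. In the 6 female pools it ranged from 2285 to 7314 CPM with a median of 4061 CPM. Male replicate 5 stood far above all other pools, at 2.75-fold the level of the next, female replicate 1, and the lowest pool was female replicate 3. Apart from it, the males lay between 3586 and 6534 CPM, inside the female range. The mean was 8132 ± 6811 CPM (SD) over the 5 male pools, 5129 ± 1319 CPM (SD) over the 4 males other than replicate 5 and 4752 ± 2086 CPM (SD) over the 6 female pools. Reads of KRT8 made up 1.94% of all counted reads in male replicate 5 (95% exact binomial interval 1.94% to 1.95%, for counting error only) and between 0.247% and 0.717% in the others.

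KRT18, the type I partner of KRT8, had 1423, 1386, 1146, 1521 and 3836 CPM in male replicates 1 to 5 and from 686 to 2181 CPM in females, with a median of 1389 CPM. The highest pool was male replicate 5, at 1.76-fold the level of female replicate 6, and the lowest was again female replicate 3. The mean was 1863 ± 1112 CPM (SD) over the 5 male pools and 1465 ± 518 CPM (SD) over the 6 female pools. Without male replicate 5 the male mean was 1369 ± 159 CPM (SD, n = 4), so the other 4 male pools were close to each other and within the female range.

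The number of KRT8 reads for each KRT18 read compares the filament partners within a library and does not depend on scaling between libraries. This ratio was 3.19, 4.71, 3.13, 3.85 and 5.25 in male replicates 1 to 5 and from 2.36 to 3.93 in females, with a median of 3.34. The log2 ratio was 1.98 ± 0.33 (SD, n = 5) in males and 1.67 ± 0.25 (SD, n = 6) in females. The difference of 0.31 did not exceed the spread between pools (two-sided exact permutation test over the 462 arrangements of the sex labels, p = 0.121, where the smallest possible p is 0.00216). Across the 11 pools the ratio varied by an SD of 0.32 on the log2 scale, whereas KRT8 itself varied by 0.82 and KRT18 by 0.61.

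KRT19 is the smallest keratin and a type I partner of KRT8 and KRT7. Its level differed most from pool to pool among the 4 keratins. It had 116, 1012, 92.8, 271 and 2174 CPM in male replicates 1 to 5 and from 66.7 to 666 CPM in females, with a median of 406 CPM. Male replicates 2 and 5 were above every female pool, male replicates 1 and 3 were below 5 of the 6, and female replicate 3 was the lowest of all, so the highest pool was 32.6-fold above the lowest. This range was 8.81-fold for KRT8, 5.59-fold for KRT18 and 3.40-fold for KRT7. The SD of log2 CPM over the 11 pools was 1.55 for KRT19, larger than that of 96.9% of the 12802 genes tested, whose median SD was 0.51. For KRT8 and KRT18 the SD was larger than that of 78.0% and 63.0% of the tested genes.

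KRT7, a type II keratin of glandular and trophoblast epithelia, was counted with between 186 and 1368 reads per library. It had 33.2, 19.7, 35.7, 20.02 and 66.3 CPM in male replicates 1 to 5 and from 19.5 to 42.1 CPM in females, with a median of 31.5 CPM. Male replicate 5 was again the highest pool, at 1.57-fold the level of female replicate 2. Otherwise the order of the pools was unlike that of KRT8. Female replicate 1, the second highest pool for KRT8, was the lowest for KRT7, and female replicate 3, the lowest for KRT8, had 32.8 CPM of KRT7. The SD of log2 CPM was 0.56, close to the median of all tested genes.

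VIM was sparsely counted and was missing from some pools. It had 0, 99, 5, 145 and 170 counts in male replicates 1 to 5, which is 0, 10.5, 0.322, 11.5 and 8.24 CPM. In female replicates 1 to 6 it had 84, 4, 182, 57, 0 and 56 counts, with a median of 4.96 CPM and a highest value of 13.2 CPM in replicate 3. Each sex therefore held both pools with 56 or more VIM reads and pools with 5 or fewer. A count of 0 allows up to 3 counts, which is 0.319 CPM from the library total in female replicate 5 and 0.256 CPM in male replicate 1. The SD of log2 CPM was 2.55, larger than that of 99.8% of the tested genes. In these bulk libraries, fewer cells that express a gene and less of its RNA per cell cannot be told apart.

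**Figure D1:**
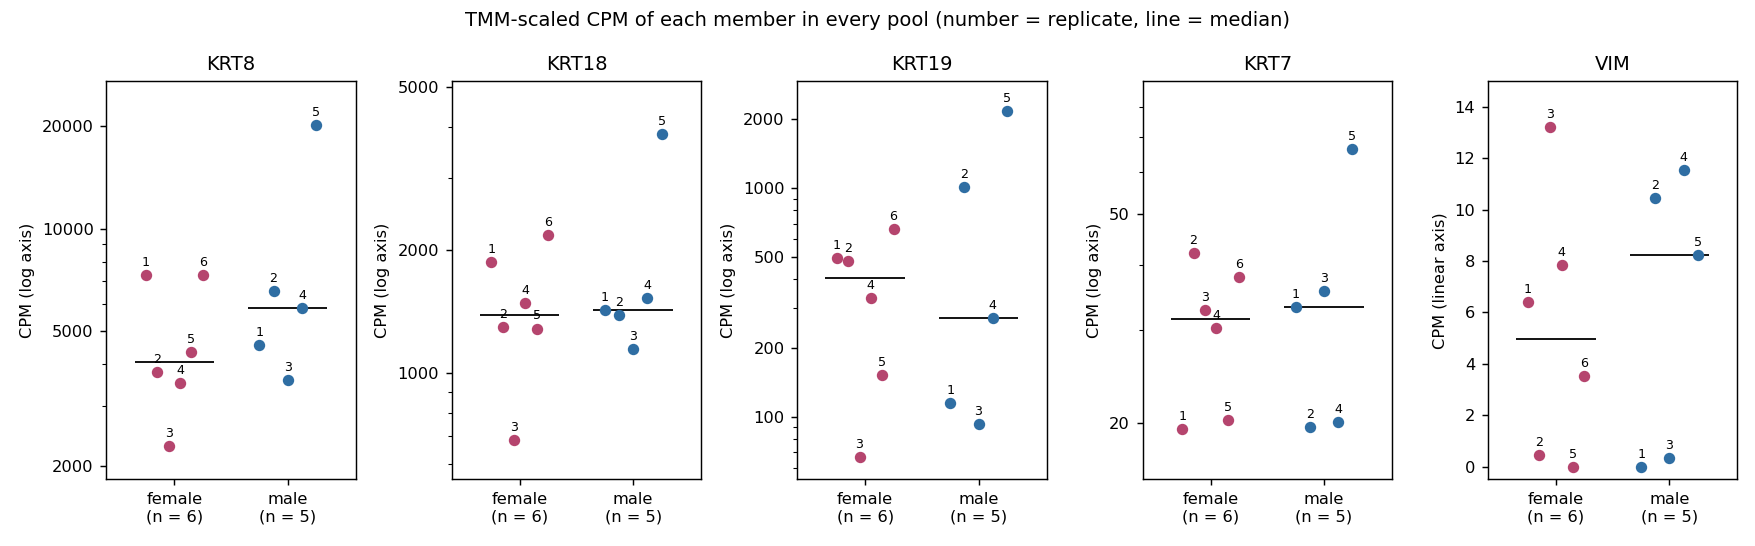
CPM of KRT8, KRT18, KRT19 and KRT7 (log axes) and of VIM (linear axis) in each of the 6 female and 5 male pools, where a point is a pool, its number the replicate and the line the median of the sex. The sexes overlap for every gene, male replicate 5 is the highest pool for the 4 keratins, and VIM is at 0 in female replicate 5 and male replicate 1.

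The sexes were compared with edgeR's quasi-likelihood test over all 12802 genes that passed the filter on low counts, blocking on the library number, which is the digit after the sex letter in a library's name. None of the 5 genes was called at a Benjamini-Hochberg false discovery rate under 0.1 with a fold change over 1.5, while 1.91% of all tested genes were. None had an unadjusted p under 0.05, which 13.2% of all tested genes had. DESeq2 with the library number also called 0 of the 5, against 4.08% of the genes to which it gave an adjusted p. No member had every male pool above every female pool, as 1.43% of the tested genes did, or every female pool above every male pool, as 1.88% did. All 5 fitted differences, taken as males over females, were above 0, as were those of 6470 of the 12802 tested genes. Their median was 0.46 on the log2 scale against 0.01 over all tested genes. KRT8, KRT18 and KRT19 varied together, as described below, so the 5 signs are not separate results.

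For KRT8 the log2 fold change of males over females was 0.51 (standard error 0.34, 95% interval -0.23 to 1.25, adjusted p = 0.569 from edgeR). KRT18 had 0.19 (standard error 0.29, 95% interval -0.43 to 0.81, adjusted p = 0.829 from edgeR). KRT7 had 0.18, with a 95% interval from -0.56 to 0.91. KRT19 had 0.46, with an interval from -1.19 to 2.11. VIM had 0.68, with an interval from -2.42 to 3.79. A difference between the sexes was therefore not detectable for any of the 5 genes with this spread between pools.

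For the keratins these differences depended on single pools. Without male replicate 5 the log2 fold change was 0.09 for KRT8 (95% interval -0.41 to 0.59), -0.10 for KRT18, -0.18 for KRT7 and -0.37 for KRT19, and none of the 5 genes was called, while the share of all tested genes called was 2.81%. Without female replicate 5 the estimates were 0.32 for KRT8, 0.04 for KRT18, 0.02 for KRT7 and 0.06 for KRT19. KRT19 was also turned by male replicate 2, without which it had -0.11. VIM had 0.57 without male replicate 5, -1.02 without male replicate 2 and -0.03 without female replicate 5. Within the library numbers, the mean log2 CPM of KRT8 was higher in males by 0.05 in number 1 (2 females, 2 males), by 0.34 in number 2 (2 females, 1 male) and by 0.95 in number 3 (2 females, 2 males), where male replicate 5 belongs. For KRT19 the same differences were -0.51, -0.68 and 1.27, and for VIM they were -0.61, -4.43 and 3.70.

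**Figure D2:**
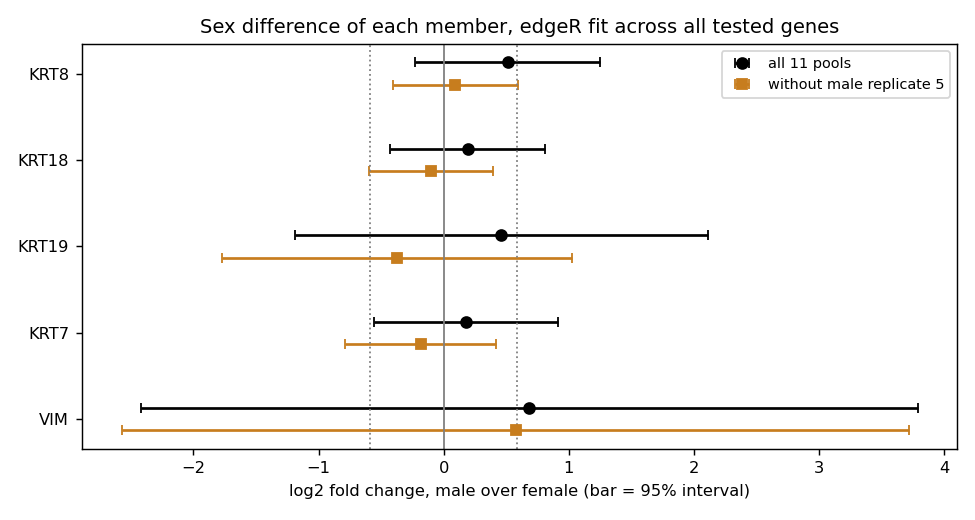
Log2 fold change of males over females for each gene, with 95% intervals as bars, from edgeR fits over all tested genes with all 11 pools (circles) and without male replicate 5 (squares). Dotted lines mark a fold change of 1.5. All 10 intervals include 0, and the estimates of KRT18, KRT19 and KRT7 change sign without that pool.

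The library number itself was tested in the same fit, to see whether the pools differed by the set they came from. The labels do not say what the number stands for. None of the 5 genes was called at a false discovery rate under 0.1, as 0.00781% of the tested genes were, which is 1 gene. With every gene of at least 1 count kept, 3 of the 5 were called, where 658 of 23857 genes were. KRT8 alone had an unadjusted p under 0.05 (0.0224, adjusted p = 0.693 from edgeR), which 6.93% of all tested genes had. Its mean was 5547 ± 1650 CPM (SD, n = 4) in number 1, 3124 ± 728 CPM (SD, n = 3) in number 2 and 9403 ± 7261 CPM (SD, n = 4) in number 3, or 5823 ± 1484 CPM (SD, n = 3) without male replicate 5. KRT19 had 164 ± 146 CPM (SD, n = 3) in number 2 and 816 ± 931 CPM (SD, n = 4) in number 3, or 363 ± 268 CPM (SD, n = 3) without male replicate 5, with an unadjusted p of 0.155 (adjusted p = 0.725 from edgeR).

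KRT8, KRT18 and KRT19 varied together from pool to pool. Over the 11 libraries, the log2 CPM of KRT8 and KRT18 had a Pearson's r of 0.94 (permutation p = 0.0001, adjusted p = 0.001 over the 10 pairs of genes) and a Spearman's rho of 0.81 (permutation p = 0.00387, adjusted p = 0.0321). Leaving out male replicate 5 and female replicate 3, the pools farthest from the median of KRT8, gave an r of 0.77. KRT8 and KRT19 had an r of 0.84 (permutation p = 0.00096, adjusted p = 0.0039) and a rho of 0.78 (permutation p = 0.00643, adjusted p = 0.0321), and an r of 0.62 without the same pools. KRT18 and KRT19 had an r of 0.82 (permutation p = 0.00117, adjusted p = 0.0039) and a rho of 0.75 (permutation p = 0.0104, adjusted p = 0.0347), and an r of 0.55 without them. With the mean of each sex removed, the same 3 pairs had an r of 0.95, 0.86 and 0.82, all with an adjusted permutation p under 0.05. The library number was not removed. Mean log2 CPM of KRT8, KRT18 and KRT19 was lowest in number 2 (11.58, 10.04 and 6.99) and highest in number 3 (12.93, 10.97 and 8.95). The part of the library number in the relation was not tested.

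Part of this relation rested on a single pool. Without male replicate 5, the adjusted permutation p of Pearson's r was 0.0068 for KRT8 and KRT18 (r = 0.87) and 0.0529 for both KRT8 with KRT19 (r = 0.74) and KRT18 with KRT19 (r = 0.70). The adjusted permutation p of Spearman's rho was then 0.135, 0.135 and 0.147 for these pairs, so none of them passed by rank. With CPM from library totals in place of TMM factors, Pearson's r stayed at 0.93, 0.83 and 0.81, while the adjusted permutation p of Spearman's rho was 0.0802, 0.064 and 0.187. The 7 pairs that include KRT7 or VIM had an r between -0.06 and 0.43, and none had an adjusted permutation p under 0.05. Without male replicate 5 and female replicate 3, VIM had an r of 0.71 with KRT19, 0.54 with KRT8 and 0.51 with KRT18. The 3 keratin pairs had 0.55 to 0.77 without the same pools. Over all pools the Spearman's rho of VIM was 0.21 with KRT19, 0.05 with KRT8 and 0.15 with KRT18. Whether VIM differs from these keratins in this respect thus depended on the pools and the measure, and is not settled. For KRT7 with KRT8, r was 0.30 over all pools and -0.47 without male replicate 5 (permutation p = 0.17), so the sign of their relation depended on that pool.

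**Figure D3:**
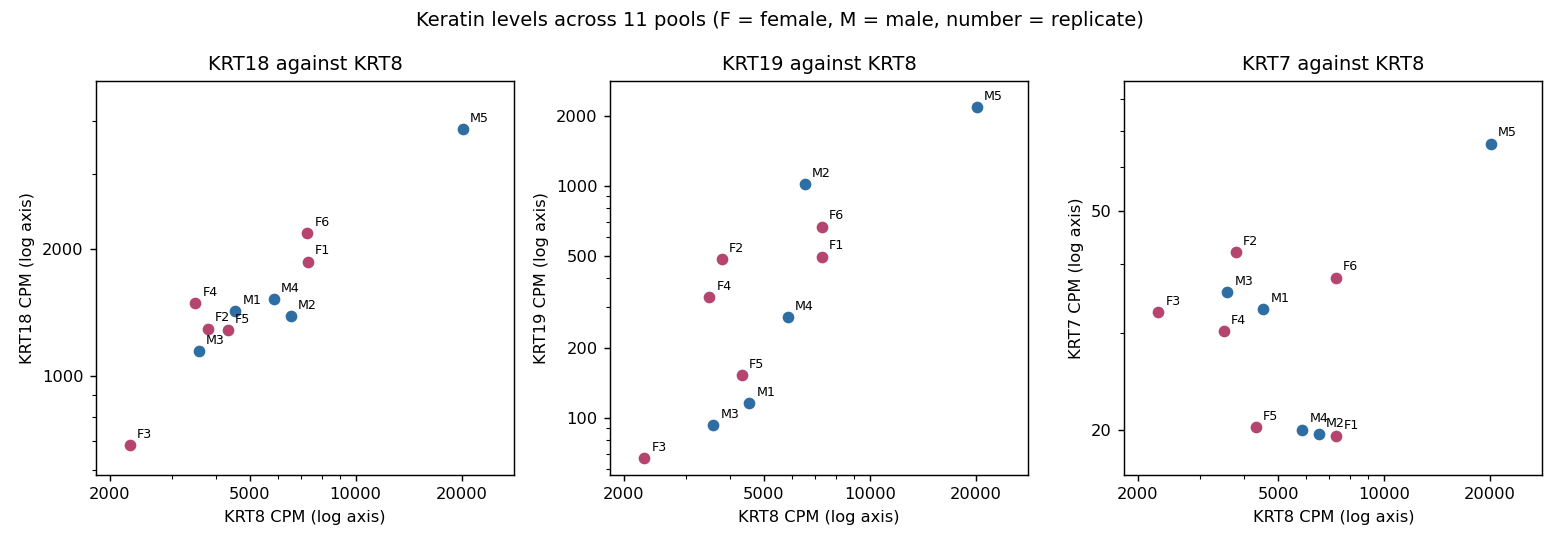
CPM of KRT18, KRT19 and KRT7 against CPM of KRT8 on log axes, where a point is a pool (F female, M male, with the replicate number). KRT18 and KRT19 follow KRT8 with r of 0.94 and 0.84 on log2 CPM, and KRT7 does not, with an r of 0.30.

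Marker levels of the blastocyst's cell types were set beside the keratins in each pool. The 8 trophectoderm markers, none of them a keratin, summed to between 4463 and 13976 CPM. From the highest, the order of the pools for this sum was female 1, male 2, male 5 and female 6, at 12113 CPM or more, and then female 5 at 7838 CPM. The pools with the highest KRT8 were male 5, female 1, female 6 and male 2 in that order, and the lowest for KRT8, female 3, was the second lowest for the trophectoderm sum with 4908 CPM. Most of the reads in that sum come from LGALS3, a galactose-binding lectin, and PTGS2, the prostaglandin synthase. Without these genes, a choice made after seeing the data, the sum ran from 673 CPM in female 3 to 1709 CPM in male 5, and male 2 fell to the eighth place with 839 CPM. The trophectoderm sum was from 4908 to 13976 CPM in females and from 4463 to 12332 CPM in males, so the sexes overlapped. Of the 8 markers, 0 were called by edgeR, with or without male replicate 5, while 1 was called by DESeq2 and 1 had an unadjusted p under 0.05 in edgeR. Over all tested genes, edgeR called 1.91%, or 2.81% without male replicate 5, and 13.2% had an unadjusted p under 0.05. DESeq2 called 4.08% of the genes to which it gave an adjusted p. PTGS2 was at a mean of 2511 CPM in females and 1204 CPM in males, a log2 fold change of -1.20 (95% interval -1.99 to -0.41, adjusted p = 0.166 from edgeR).

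The sum of 7 hypoblast markers, those of the primitive endoderm, ran the other way at the ends of this order. It was lowest in male 5, with 208 CPM, and highest in female 3, with 621 CPM. Between the ends the order was not reversed throughout, as male 2, among the highest for KRT8, had 465 CPM. Most of the reads in this sum come from GATA6 (mean 189 CPM in females, 177 CPM in males) and PDGFRA (153 and 149 CPM). Both were highest in female 3, but GATA6 ranged only from 143 to 212 CPM over the pools and PDGFRA from 17.9 to 337 CPM. The spread of the sum thus lay mainly in PDGFRA. Only 5 of the 7 had enough counts to be tested. Inner cell mass markers summed to 560 CPM in female 6 and 599 CPM in female 1, the lowest values, and to 888 CPM in male 5. Most of the sum in male 5 was POU5F1, with 737 CPM, its highest pool. SPIC, also a large part of this sum, ranged from 55.8 to 536 CPM and was highest in female 3. The sum thus does not show the markers moving together. VIM was at 8.24 CPM in male 5 and at 13.2 CPM in female 3, the pools with the highest and the lowest KRT8. The cumulus marker sum was 16.6 CPM in male 5 and 7.19 CPM in female 3, and 14.2 and 5.38 CPM in female 5 and male 1, which had no VIM reads. Male 5 was also the most deeply counted library, with 21392764 reads, and had the fewest genes detected, 14937 against 16985 to 18550 in the other 10 pools. Over the log2 CPM of the tested genes, its correlation with the other male pools was 0.861 to 0.887, and that of all other pairs of pools of the same sex was 0.929 to 0.963. The part of cell composition and depth in the keratin levels was not tested.

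**Figure D4:**
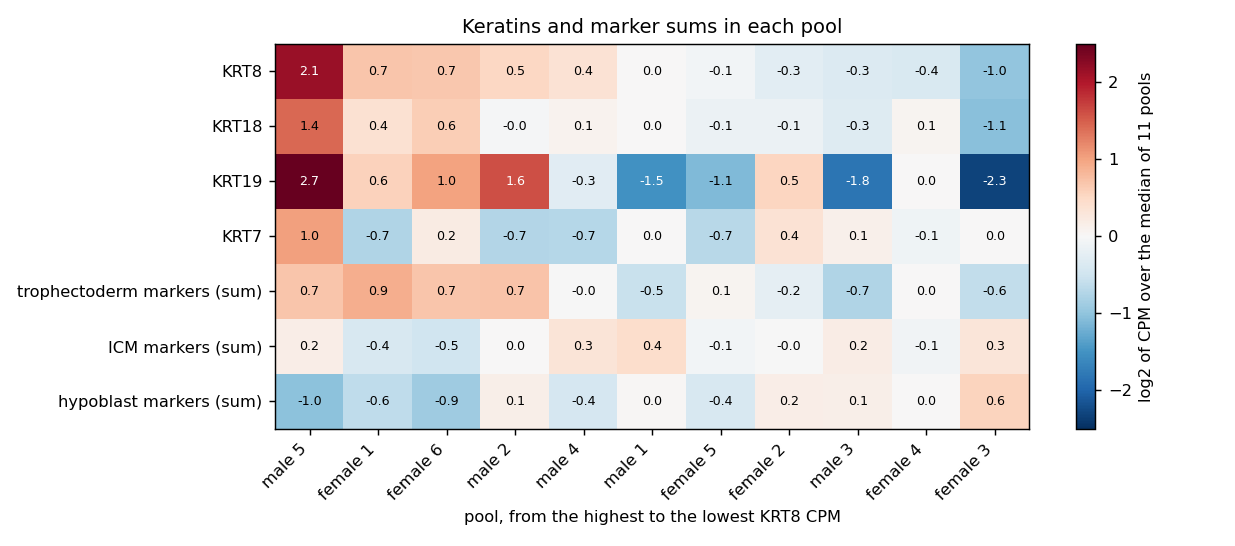
Log2 of the CPM over the median of the 11 pools for the keratins and for the summed trophectoderm, inner cell mass (ICM) and hypoblast markers, with pools ordered from the highest to the lowest KRT8. The trophectoderm sum is between 0.69 and 0.90 in the 4 pools on the left, and the hypoblast sum goes from -1.02 in male 5 to 0.56 in female 3.

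The table lists 53 other genes with a keratin symbol, and few of them were counted in these embryos. Of these, 14 had no read in any library and 33, those 14 included, had at most 3 reads in every library. Only 7 had enough counts to be tested, and 0 of them were called by edgeR, by DESeq2 or by edgeR without male replicate 5, with 0 at an unadjusted p under 0.05. Over all genes the shares called in these 3 fits were 1.91%, 4.08% and 2.81%, and 13.2% had such an unadjusted p in edgeR. KRT5, a keratin of basal cells in stratified epithelia, had 13.0 ± 8.82 CPM (SD) over the 6 female pools and 14.0 ± 13.54 CPM (SD) over the 5 male pools, and its highest pool was male replicate 3 with 36.0 CPM, a pool low in KRT8 and KRT19. KRT10, a keratin of differentiating epidermis, had 10.2 ± 1.93 CPM (SD) over the 6 female pools and 9.81 ± 6.62 CPM (SD) over the 5 male pools. KRT80 had 4.90 ± 2.17 CPM (SD) over the 6 female pools and 5.06 ± 4.47 CPM (SD) over the 5 male pools, with the highest value, 12.5 CPM, in male replicate 5. The median log2 fold change of the 7 genes was -0.08.

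Of 14 other intermediate filament genes, 10 were tested and 0 were called by any of the same 3 fits, with 0 at an unadjusted p under 0.05 in edgeR. Their median log2 fold change was 0.01, as over all tested genes. PRPH, a type III relative of vimentin known from peripheral neurons, had 48.1 ± 26.9 CPM (SD) over the 6 female pools and 62.3 ± 67.3 CPM (SD) over the 5 male pools. Its highest pool was again male replicate 5, with 178 CPM, and its fitted log2 fold change with the library number as a block was -0.12 (95% interval -1.47 to 1.24), below 0 although the mean CPM was higher in males. Among the nuclear lamins, LMNB1 had 36.3 ± 7.37 CPM (SD) over the 6 female pools and 48.0 ± 13.0 CPM (SD) over the 5 male pools, a log2 fold change of 0.36 (95% interval -0.04 to 0.76, adjusted p = 0.436 from edgeR). LMNA had 27.4 ± 5.54 CPM (SD) over the 6 female pools and 36.3 ± 39.1 CPM (SD) over the 5 male pools. Only GFAP, the filament of astrocytes, had no reads in any library.

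Keratin filaments are anchored at desmosomes and linked to other parts of the cytoskeleton by plakins. Of 11 genes for such linkers, 10 were tested and 0 were called by edgeR, by DESeq2 or without male replicate 5, with 0 at an unadjusted p under 0.05 in edgeR. Their median log2 fold change was -0.19. JUP (plakoglobin) had 113 ± 44.7 CPM (SD) over the 6 female pools and 109 ± 58.1 CPM (SD) over the 5 male pools, and DSP (desmoplakin) had 89.1 ± 35.3 and 90.7 ± 37.6 CPM in the same order. Both were highest in male replicate 5, with 211 and 155 CPM. PKP2 (plakophilin) was at 90.7 ± 18.7 CPM (SD) over the 6 female pools and 79.4 ± 11.04 CPM (SD) over the 5 male pools.

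Among 16 genes for transcription factors that act on simple keratins, on epithelial fate or on vimentin, 13 were tested and 0 were called by the same 3 fits, with 0 at an unadjusted p under 0.05 in edgeR. Their median log2 fold change was -0.33, and 3 of the 13 estimates were above 0. KLF5 was at 292 ± 42.2 CPM (SD) over the 6 female pools and 311 ± 58.3 CPM (SD) over the 5 male pools, and TFAP2C at 124 ± 21.1 and 110 ± 24.8 CPM in the same order. GRHL1 was at 96.1 ± 35.9 and 87.8 ± 16.6 CPM. None of KLF5, TFAP2C and GRHL1 had its highest level in male replicate 5. Of the same list, SNAI1 (11.9 CPM) and ZEB2 (5.57 CPM, not tested) were highest in that pool. Of the epithelial and mesenchymal companions CDH1, EPCAM, CDH2 and FN1, 0 were called and EPCAM had an unadjusted p under 0.05, which 13.2% of all tested genes had. EPCAM, an adhesion molecule of epithelia, was at 605 ± 166 CPM (SD) over the 6 female pools and 459 ± 149 CPM (SD) over the 5 male pools, a log2 fold change of -0.44 (adjusted p = 0.344 from edgeR). FN1 (fibronectin), of the extracellular matrix, was at 1611 ± 706 CPM (SD) over the 6 female pools and 1281 ± 712 CPM (SD) over the 5 male pools, a log2 fold change of -0.36 (adjusted p = 0.774 from edgeR). Its lowest pool, at 157 CPM, was male replicate 5, and its highest, at 2791 CPM, was female replicate 3, the pools with the highest and the lowest KRT8.

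**Figure D5:**
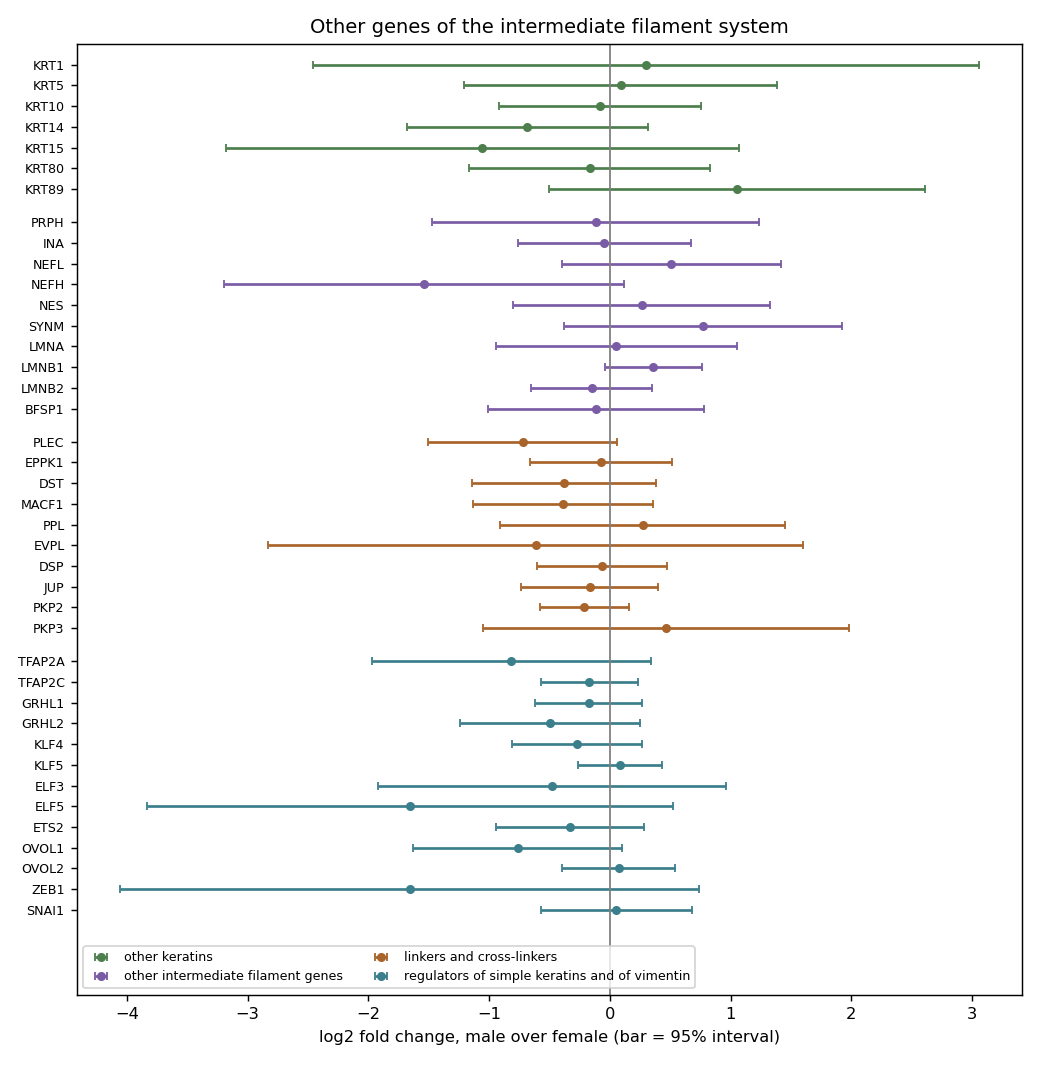
Log2 fold change of males over females, with 95% intervals as bars, for the tested genes of 4 lists (other keratins, other intermediate filament genes, linkers, and regulators). Each of the 40 intervals includes 0, and the widest are those of KRT1 and ZEB1.

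The genes whose pattern over the 11 pools was most like that of each member were found by Pearson's r of log2 CPM with the mean of each sex removed, among the tested genes with a named symbol. With this many genes and 11 points some high values always occur, so they are descriptions. For KRT8 they were MOB3B (r = 0.99), ASRGL1 (0.99) and ADIPOR1 (0.98), and 196 tested genes had an r over 0.9. For KRT18 they were BBLN (0.97), NGEF (0.97) and MAPK4 (0.96). For KRT19 they were AKR1B1, an aldose reductase that also makes prostaglandin F (0.98), STAP2 (0.98) and DELE1 (0.97). Leaving out male replicate 5 changed these values little, to 0.98, 0.97 and 0.97 for KRT8 and to 0.98, 0.98 and 0.95 for KRT19. For KRT18 they were then 0.95, 0.96 and 0.93. KRT7 was closest to CLCN6 (0.94), HEATR3 (0.93) and SNX27 (0.92), and 5 tested genes had an r over 0.9 with it. Without male replicate 5 the values of KRT7 fell to 0.89, 0.90 and 0.87. VIM was closest to UCHL1, a ubiquitin hydrolase (0.93), VPS36 (0.91) and TNPO3 (0.91), and 3 genes had an r over 0.9.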

How the data were processed

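RNA-seq was read from 11 pools of expanded blastocysts, with cDNA made by the SMART-Seq HT PLUS kit. Per the submitters' processing notes and the methods, the authors used fastp 0.20.0 for trimming, STAR 2.7.10b for alignment to the ARS-UCD assembly with at most 3 mismatches, and featureCounts for counting per gene. The deposited values are raw read counts per gene, and the strand setting is not given in the sources used here. Coordinates come from the RefSeq annotation of ARS-UCD, which held no exon lengths or sequences here.

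Genes passing edgeR's filterByExpr by sex were fitted with edgeR 4.0.16 (R 4.3.3, TMM factors, quasi-likelihood test) on library number and sex. The study's fit used collection week, and the library number stands in its place without being known to be the week. A call needed a false discovery rate under 0.1 and a fold change over 1.5. CPM for log2 values had a prior count of 2. Correlations used 100000 permutations. The script was tested on simulated data. The alternatives were DESeq2 1.42.0, RLE factors, other filters, other blocks and leaving out each library. The p-values measure the spread between pools, and count intervals cover counting error only.

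The genes and lists were chosen with earlier results of these data known. Named were all members, the genes of highest mean CPM in each list, and the 3 genes most like each member. GFAP, KRT1, ZEB1, ZEB2, SNAI1, PTGS2, LGALS3 and the cumulus markers were named after their values were seen. No column of fold changes or p-values was used.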

Additional observations from a re-analysis of the deposited data

Results flagged for a closer look

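KRT8 was at 20142 CPM in male replicate 5, and the gap to the next male pool was 0.82 of the whole range of the 5 males, above the critical value of 0.71 in Dixon's test. KRT18 was at 3836 CPM in the same pool, with a gap of 0.86 of the range. These were 2 of the 20 groups of values looked at in this way, of which about 1 in 20 would pass by chance, and both come from the same library. The gaps were taken on CPM, and the test was not run on log2 CPM. On that scale KRT8 was at 14.3 in male replicate 5, 12.7 in the next male and 11.8 in the lowest, a smaller gap for the range. KRT18 was at 11.9, 10.6 and 10.2 in the same order, a gap that took up more of the range than that of KRT8.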

How the results depend on the processing

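None of the 5 genes was called between the sexes under any alternative run. KRT8 came nearest, with an adjusted p of 0.0866 from edgeR and a log2 fold change of 0.51, below the fold required, when every gene of at least 1 count was kept. The fold change was also 0.51 in the main fit, and the standard error was 0.17 against 0.34 there. The lower adjusted p thus came with a smaller standard error and not with a larger difference. Leaving out 1 library at a time moved the log2 fold change of males over females between -0.18 and 0.42 for KRT7, 0.09 and 0.75 for KRT8, -0.10 and 0.34 for KRT18, -0.37 and 0.89 for KRT19 and -1.02 and 1.65 for VIM. It turned below 0 without male replicate 5 for KRT7 (-0.18), KRT18 (-0.10) and KRT19 (-0.37), without male replicate 2 for KRT19 (-0.11) and VIM (-1.02), and without female replicate 5 for VIM (-0.03). The log2 ratio of KRT8 to KRT18 differed by 0.21 to 0.40 in these sets. The genes called over the whole table numbered 245, from 95 without male replicate 3 to 364 without male replicate 5, 652 with DESeq2 and 743 with every gene of at least 1 count kept.

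With every gene of at least 1 count kept, 3 of the 5 were called by library number, against 0, where 658 of 23857 genes were called in place of 1. No value was had for VIM with at least 10 counts required in every library. Without male replicate 5, a choice made after seeing the data, 1 pair of genes was correlated in place of 3, and KRT7 had an r of -0.47 with KRT8, -0.18 with KRT18 and -0.24 with KRT19. The causes were not tested.

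With no replicate block the log2 fold changes were 0.20 for KRT7, 0.77 for KRT8, 0.35 for KRT18, 1.005 for KRT19 and 0.21 for VIM, with 326 genes called. With the replicate number of the sample titles as the replicate block they were 0.18, 0.74, 0.41, 0.52 and 0.20, with 132 genes called. Pools of the same replicate number had deviations correlated from -0.11 to 0.35, so the numbers were not taken to pair the pools. The mean deviations of females and males of the same library number had correlations of 0.01, 0.37 and 0.20 for numbers 1 to 3. This check therefore does not favour the library number as the block over the replicate number.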
